A study of Mus musculus with 12 samples.

Results

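The regions described here were open chromatin regions of mouse bone marrow that were accessible in wild type (WT) LSK cells and less so in WT GMP. In GMP of mice lacking the upstream regulatory element (URE) of Spi1 they were more accessible than in WT GMP. They were chosen by the measured values themselves. Counts were scaled to a common total (counts per 1e6, CPM) by the column sum, averaged per group, and 0.25 was added. Ratios in the text are taken after this addition, while printed CPM are without it. A region was selected on a WT-LSK mean of at least 2 CPM, a WT-LSK/WT-GMP ratio of at least 3, a URE-GMP/WT-GMP ratio of at least 3 and a URE-LSK/WT-LSK ratio over 1/3. Of 121336 regions 152 met these criteria (0.125%), and they are called retained regions below. No level was required in GMP. The WT-GMP mean was 9.54 CPM in a retained region in an intron of Cables1. In one upstream of Pappa2 the URE-GMP mean was 0.989 CPM. WT-GMP is the denominator of both ratios of 3, so a WT-GMP level that was measured too low would raise both at once. Because the criteria used all 4 groups, levels and folds of the retained regions are given as a description, without a test.

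LSK cells (Lin- Sca-1+ c-Kit+) are the fraction rich in stem cells and early progenitors, and GMP are the granulocyte-monocyte progenitors, which lack Sca-1 and carry CD16/32. Chromatin accessibility was measured by ATAC-seq, with the OmniATAC protocol, in cells sorted from the bone marrow of WT and UREd/d mice, which were young adult littermates on a C57BL/6 background. The URE was deleted in the germ line, so both cell types carried the deletion, and the mice were taken before leukemia. WT-LSK, WT-GMP, URE-LSK and URE-GMP had 3 libraries each, from 3 mice per genotype and cell type by the study's methods.

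PU.1, the product of Spi1, is an ETS family transcription factor that drives myeloid differentiation, and the URE is its distal enhancer in blood cells. On the way from LSK to GMP many elements used in stem cells close while myeloid elements open. RUNX factors, E-box binding factors such as TAL1 and E proteins, and AP-1 are among the other regulators that bind the elements of early blood cells. ATAC-seq records how often a transposase cuts a region, which reflects how open it is and not which factor binds it.

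Total counts per library ranged from 23072701 to 62204826. The region with the most counts in the window of the deleted element, chr2:91082790-91083700, held between 974 and 2110 counts in each WT library and between 0 and 6 in each URE library, so the labels matched the genotype. In 7 LSK marker genes with a region near the start site, summed CPM were 488 to 505 in WT-LSK and 339 to 394 in WT-GMP. In 7 GMP marker genes they were 255 to 270 and 812 to 1036. Ly6a (Sca-1) and Fcgr3 (CD16) had no region within 5 kb of their start sites. One WT-GMP library stood apart in the regions at issue. In the 5904 regions that met the WT-LSK level and the WT-LSK/WT-GMP criterion, here called LSK regions, 0.661%, 0.736% and 1.11% of the counts of WT-GMP replicates 1, 2 and 3 were found. Without WT-GMP replicate 3, 262 regions met the criteria in place of 152, and 145 of these were retained regions.

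The sequences of 6 retained regions are shown because they hold the motifs that are counted further on, and because their values are given in detail. Each is the central 300 bases on the plus strand of GRCm38, with matches to RUNX (AACCACA, or TGTGGTT on the other strand), E-box (CAGCTG), AP-1 (TGANTCA) or PU.1 (GAGGAAGT, or ACTTCCTC) in capitals. The first lies in an intergenic stretch of chromosome 14 with 1 RUNX match. The second is intergenic, 193841 bp upstream of Cobl, with 1 RUNX match, and the third lies in an intron of Gpam with 1 E-box.
chr14:107052079-107052378: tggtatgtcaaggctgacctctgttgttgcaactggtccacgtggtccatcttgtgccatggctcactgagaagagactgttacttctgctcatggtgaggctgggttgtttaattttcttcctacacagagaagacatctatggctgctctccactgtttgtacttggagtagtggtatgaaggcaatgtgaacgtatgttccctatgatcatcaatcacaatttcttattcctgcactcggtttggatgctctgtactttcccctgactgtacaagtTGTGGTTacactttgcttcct
chr11:12658848-12659147: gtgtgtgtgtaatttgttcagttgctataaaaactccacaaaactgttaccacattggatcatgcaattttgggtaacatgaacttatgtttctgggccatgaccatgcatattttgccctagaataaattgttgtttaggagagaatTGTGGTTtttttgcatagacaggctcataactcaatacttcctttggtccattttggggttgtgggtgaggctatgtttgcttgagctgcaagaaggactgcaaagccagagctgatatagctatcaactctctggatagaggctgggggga
chr19:55120947-55121246: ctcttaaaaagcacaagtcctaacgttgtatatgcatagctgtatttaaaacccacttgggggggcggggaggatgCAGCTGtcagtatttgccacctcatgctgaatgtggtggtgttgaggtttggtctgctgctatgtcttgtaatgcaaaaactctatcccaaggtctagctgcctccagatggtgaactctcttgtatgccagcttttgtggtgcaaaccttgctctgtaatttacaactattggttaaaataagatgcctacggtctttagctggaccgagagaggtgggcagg
The next lies in an intron of Wnt5b and holds an AP-1 and an E-box match, the one after it in an intron of Adam2 upstream of Gulo with a RUNX and an AP-1 match, and the last in an intron of Rgs3 with a PU.1 match.
chr6:119521951-119522250: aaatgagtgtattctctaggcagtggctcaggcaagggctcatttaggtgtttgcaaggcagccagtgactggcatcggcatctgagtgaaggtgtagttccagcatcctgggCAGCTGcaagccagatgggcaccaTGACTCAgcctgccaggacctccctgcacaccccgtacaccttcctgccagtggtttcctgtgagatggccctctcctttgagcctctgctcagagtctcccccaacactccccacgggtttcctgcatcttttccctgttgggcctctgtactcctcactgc
chr14:66028273-66028572: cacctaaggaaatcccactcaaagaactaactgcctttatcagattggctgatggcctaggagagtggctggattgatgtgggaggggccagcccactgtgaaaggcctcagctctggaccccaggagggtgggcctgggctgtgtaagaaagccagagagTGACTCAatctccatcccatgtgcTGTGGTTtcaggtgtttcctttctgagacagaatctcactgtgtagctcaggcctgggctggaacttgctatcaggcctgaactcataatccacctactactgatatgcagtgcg
chr4:62593852-62594151: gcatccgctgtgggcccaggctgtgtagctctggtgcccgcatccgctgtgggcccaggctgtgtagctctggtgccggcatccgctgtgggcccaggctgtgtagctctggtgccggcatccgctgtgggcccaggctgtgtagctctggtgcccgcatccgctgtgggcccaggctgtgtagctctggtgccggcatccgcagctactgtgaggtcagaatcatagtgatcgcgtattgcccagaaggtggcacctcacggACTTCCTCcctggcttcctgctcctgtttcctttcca

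The first question was how much of the WT-LSK accessibility the retained regions held in URE-GMP. The median over the 152 regions was 4.82 ± 0.271 CPM in WT-LSK (SD of the library medians, n = 3), 0.844 ± 0.204 in WT-GMP, 12.8 ± 0.678 in URE-LSK and 4.23 ± 0.660 in URE-GMP. URE-GMP thus lay near WT-LSK. Yet the URE-LSK libraries stood above both. The plot of all retained regions by library shows the same order in each replicate. Their counts were low in WT-GMP, with a median of 16 to 45 per library against 104 to 593 in the other libraries, and the lowest count there was 0.

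**Figure D1:**
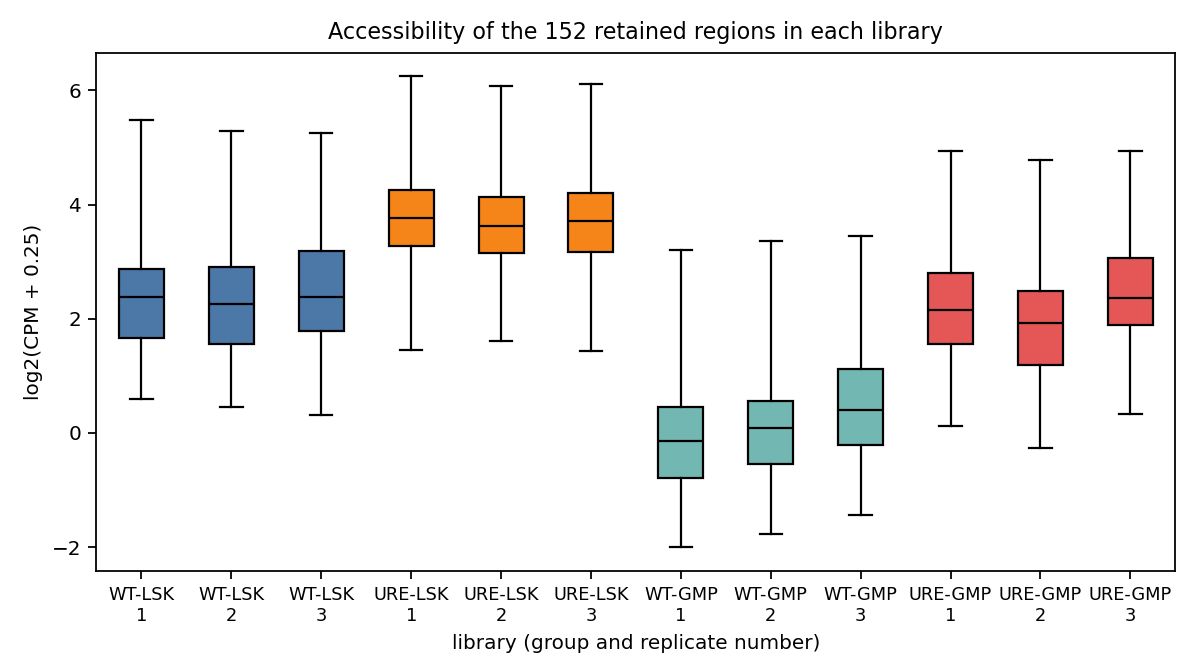
Box plots of log2(CPM + 0.25) of the 152 retained regions in each of the 12 libraries (box, quartiles; line, median; whiskers, lowest and highest region). The 3 URE-LSK libraries have the highest medians (12.1 to 13.4 CPM) and the 3 WT-GMP libraries the lowest (0.660 to 1.06 CPM), while URE-GMP (3.57 to 4.89 CPM) lies next to WT-LSK (4.51 to 4.98 CPM).

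Against WT-LSK, the median URE-GMP level was 0.871 times as high, with a range from 0.307 to 3.23. Of the 152 regions 137 lay between 0.5 and 2 times the WT-LSK level, 11 lay under 0.5, and 53 were above the WT-LSK level. The 3 URE-GMP and 3 WT-LSK libraries overlapped in 88 regions. All WT-LSK libraries exceeded all URE-GMP libraries in 47 retained regions, where 47.6% of all regions did so, and the reverse held in 17, where 30.9% of all regions did so. In the 4931 LSK regions that met the URE-LSK criterion but not the URE-GMP criterion, the median URE-GMP level was 0.212 times that of WT-LSK. The URE-GMP/WT-LSK ratio is the URE-GMP/WT-GMP ratio divided by the WT-LSK/WT-GMP ratio, and the criteria set both. The difference between the 2 medians is therefore in part a product of the choice.

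The word retained stands for the criteria, which compare URE-GMP with WT-GMP and set no threshold on the URE-GMP/WT-LSK ratio. The word does not mean that accessibility failed to fall from LSK to GMP in URE mice. In URE cells the step from LSK to GMP lowered 150 of the 152 regions, and the median URE-GMP/URE-LSK ratio was 0.364 (range 0.0417 to 1.06). The ratio was under 1 in 5752 of the 5904 LSK regions and in 62605 of all 121336 regions. Its median was 0.205 in the LSK regions not kept in URE-GMP. All URE-LSK libraries lay above all URE-GMP libraries in 140 retained regions (92.1%). The same held in 93.0% of all LSK regions, 99.4% of the LSK regions not kept and 38.7% of all regions. The median fitted log2 fold change (edgeR) of the retained regions was -1.46 for this step in URE cells and -2.38 for the step in WT cells. The criteria used all of these groups, so nothing beyond the description is read from these values.

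The retained regions were also more open in LSK of URE mice, which the criteria did not ask for, since they set only a lower bound there that removed no region. The URE-LSK/WT-LSK ratio had a median of 2.34 (range 0.904 to 9.72), was over 1 in 151 regions and was at least 2 in 98. All URE-LSK libraries exceeded all WT-LSK libraries in 138 retained regions, against 28.1% of all regions, and the groups overlapped in the other 14. The median fitted log2 fold change was 1.39 against 0.14 over all regions. Among LSK regions not kept in URE-GMP the median ratio was 1.10. These values too are a description, since WT-LSK and URE-LSK entered the criteria.

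**Figure D2:**
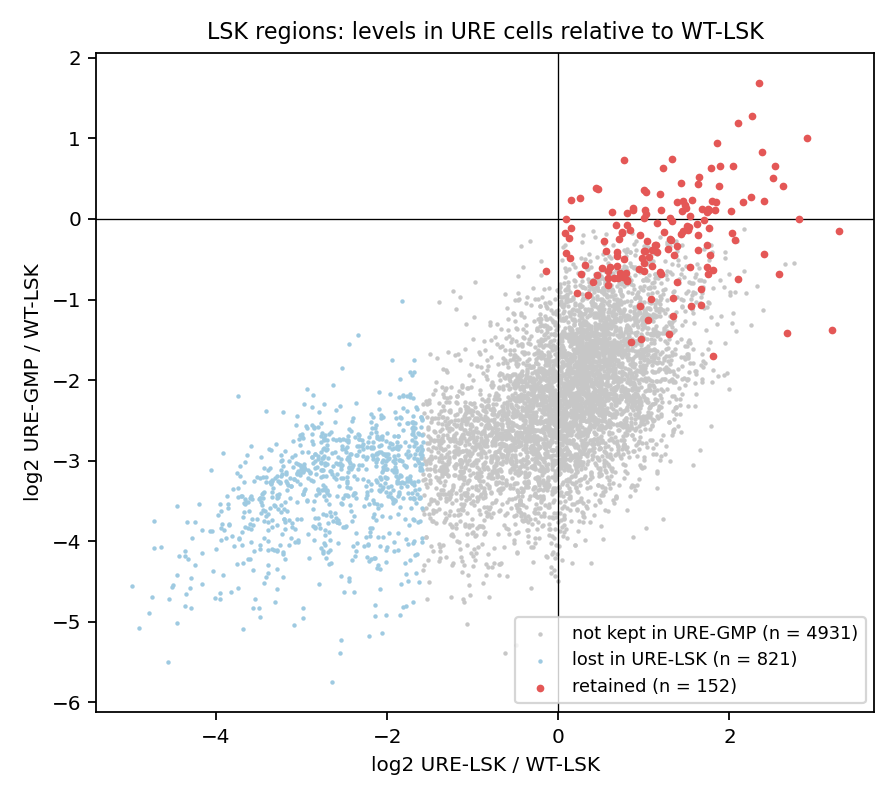
Each point is 1 of the 5904 LSK regions, placed by its URE-LSK/WT-LSK ratio (x, log2) and its URE-GMP/WT-LSK ratio (y, log2), which share the WT-LSK denominator. The 152 retained regions lie to the right of 0 on the x axis in all but 1 case and spread around 0 on the y axis, from ratios of 0.307 to 3.23, and the criteria helped to set where the 3 classes lie.

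Most URE-GMP/WT-GMP ratios were near the threshold of 3. The WT-LSK/WT-GMP ratio had a median of 4.43 and a highest value of 14.2. The median URE-GMP/WT-GMP ratio was 3.65, and 100 regions lay between 3 and 4, 21 between 4 and 5, 27 between 5 and 8 and 4 at 8 or above. Among the regions just inside this threshold were one upstream of Sptlc1 with a ratio of 3.01 and one in an intron of Rgs3 with 3.01. The 3 just outside had 2.98, 2.97 and 2.96. They lay 276192 bp from the start of Nr2f2, at 4930452B06Rik and in an intron of Ampd3.

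Whether the choice held in libraries that had no part in it was examined by leaving out all 4 libraries of 1 replicate number, choosing regions again on the other 8, and reading the ratios in the 4 libraries left out. The choice then gave 112, 183 and 187 regions without replicates 1, 2 and 3, of which 96, 137 and 129 were retained regions. In the libraries left out the URE-GMP/WT-GMP ratio was over 1 in 112 of 112, 183 of 183 and 186 of 187 regions, with medians of 4.42, 3.16 and 3.20. Over the LSK regions chosen in the same way, the medians were 0.979, 0.900 and 0.711, and over all regions 0.989, 0.956 and 0.927. The URE-GMP/WT-GMP ratio reached 3 in 93, 103 and 105 of the chosen regions, and in 6.42%, 4.82% and 7.91% of all regions. Both ratios reached 3 in 84 of 112, 90 of 183 and 70 of 187 regions. The direction held in the libraries left out, while the exact membership depended on the library, most of all on WT-GMP replicate 3. With the WT-GMP libraries divided between the ratios, so that no library stood in both denominators, 155, 137 and 151 regions met the criteria, and 112, 120 and 107 of them were retained regions.

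The 6 retained regions with the largest URE-GMP/WT-GMP ratio at 5 CPM or more in URE-GMP had WT-GMP means from 0.269 to 1.60 CPM. The largest lay at chr14:107051911-107052545, an intergenic region whose nearest protein-coding start site, that of Trim52, is 945713 bp away. Its CPM were 2.74, 2.04 and 2.78 in WT-LSK and 0.248, 0.371 and 0.189 in WT-GMP. The URE libraries had 15.97, 12.8 and 12.9 in LSK and 9.60, 9.03 and 7.48 in GMP. Here all URE-GMP libraries exceeded all WT-LSK libraries, and all stayed under URE-LSK. With 0.25 added to the means, the URE-GMP/WT-LSK ratio was 3.23 and the URE-GMP/WT-GMP ratio 17.2. The fitted log2 fold change of URE-GMP against WT-GMP was 5.10 ± 0.26 (SE).

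The second lay in an intron of Gpam, the gene of the mitochondrial glycerol-3-phosphate acyltransferase that starts triacylglycerol synthesis, at chr19:55120886-55121306. Its CPM were 4.28, 3.03 and 2.70 in WT-LSK and 0.289, 0.371 and 0.378 in WT-GMP. With the URE deleted, LSK had 12.9, 9.76 and 15.4 and GMP had 6.20, 5.18 and 8.48. The 4 groups did not overlap. The third, at chr11:12658801-12659193, was intergenic. Its nearest protein-coding start site, that of Cobl, the gene of an actin nucleator, is 193841 bp away. Its CPM were 7.38, 7.15 and 8.89 in WT-LSK and 0.289, 0.218 and 0.449 in WT-GMP. In URE mice they were 15.0, 15.995 and 15.9 in LSK and 6.02, 3.91 and 6.62 in GMP. This region had the largest WT step of all retained regions, with a WT-LSK/WT-GMP ratio of 14.2, and in URE-GMP it held 0.715 times the WT-LSK level, with every URE-GMP library below every WT-LSK library.

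The fourth was intergenic, at chr14:58253345-58254047, and lay 176838 bp downstream of the nearest protein-coding start, that of Fgf9, a fibroblast growth factor gene. Its CPM were 9.98, 9.62 and 9.43 in WT-LSK and 0.743, 1.22 and 1.70 in WT-GMP. The URE libraries had 32.8, 32.4 and 27.5 in LSK and 13.1, 13.6 and 15.3 in GMP. URE-GMP again exceeded WT-LSK in every library. The fifth, in an intron of Bop1, a ribosome biogenesis gene, and 3688 bp from the start of Scx, had 7.91 ± 2.77 CPM in WT-LSK, 1.60 ± 0.617 in WT-GMP, 42.1 ± 2.52 in URE-LSK and 14.3 ± 1.77 in URE-GMP (SD, n = 3). The sixth was intergenic, 734337 bp upstream of the nearest protein-coding start, that of Ctnnd2, the gene of delta-catenin. It had 7.65 ± 1.28, 0.913 ± 0.602, 28.1 ± 2.29 and 8.90 ± 3.18 CPM in the same order. In these last 2, the URE-GMP/WT-LSK ratios, taken with 0.25 added, were 1.78 and 1.16, and in the second of them the libraries overlapped.

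The 6 retained regions with the highest WT-LSK level had smaller ratios. The most accessible lay in an intron of Wnt5b, the gene of a Wnt ligand, at chr6:119521438-119522762. Its CPM were 44.7, 38.9 and 37.7 in WT-LSK and 6.23, 7.12 and 8.80 in WT-GMP. With the URE deleted, LSK had 75.9, 67.3 and 68.6 and GMP had 25.6, 16.8 and 28.7. URE-GMP reached 0.589 times the WT-LSK mean and did not overlap it. The intronic region of Rgs3, a regulator of G protein signalling, lay at chr4:62593738-62594265. Its CPM were 34.7, 37.4 and 33.6 in WT-LSK and 5.08, 8.82 and 10.7 in WT-GMP. In URE mice they were 38.4, 41.5 and 36.8 in LSK and 24.2, 21.0 and 30.2 in GMP. Unlike the median retained region, it was nearly as open in WT-LSK as in URE-LSK, with overlapping libraries and a ratio of 1.10.

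A region in a coding exon of Zfyve28, 8650 bp upstream of Mxd4, the gene of a MAX dimerization protein that opposes MYC, lay at chr5:34196370-34196899. Its CPM were 26.2, 26.7 and 19.7 in WT-LSK and 5.37, 5.72 and 6.84 in WT-GMP. The URE libraries had 42.7, 36.9 and 42.3 in LSK and 21.2, 17.1 and 26.3 in GMP. Here URE-GMP and WT-LSK overlapped. A region 25458 bp upstream of Lyst, the lysosomal trafficking regulator gene, had 22.4 ± 0.188 CPM in WT-LSK, 2.70 ± 0.491 in WT-GMP, 33.5 ± 3.26 in URE-LSK and 13.4 ± 3.06 in URE-GMP. The other 2 of this group lay on chromosome 18 in introns of Cables1, the gene of a Cdk5 and Abl substrate, and Pard6g, a cell polarity gene, with URE-GMP at 0.889 and 0.421 times WT-LSK.

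**Figure D3:**
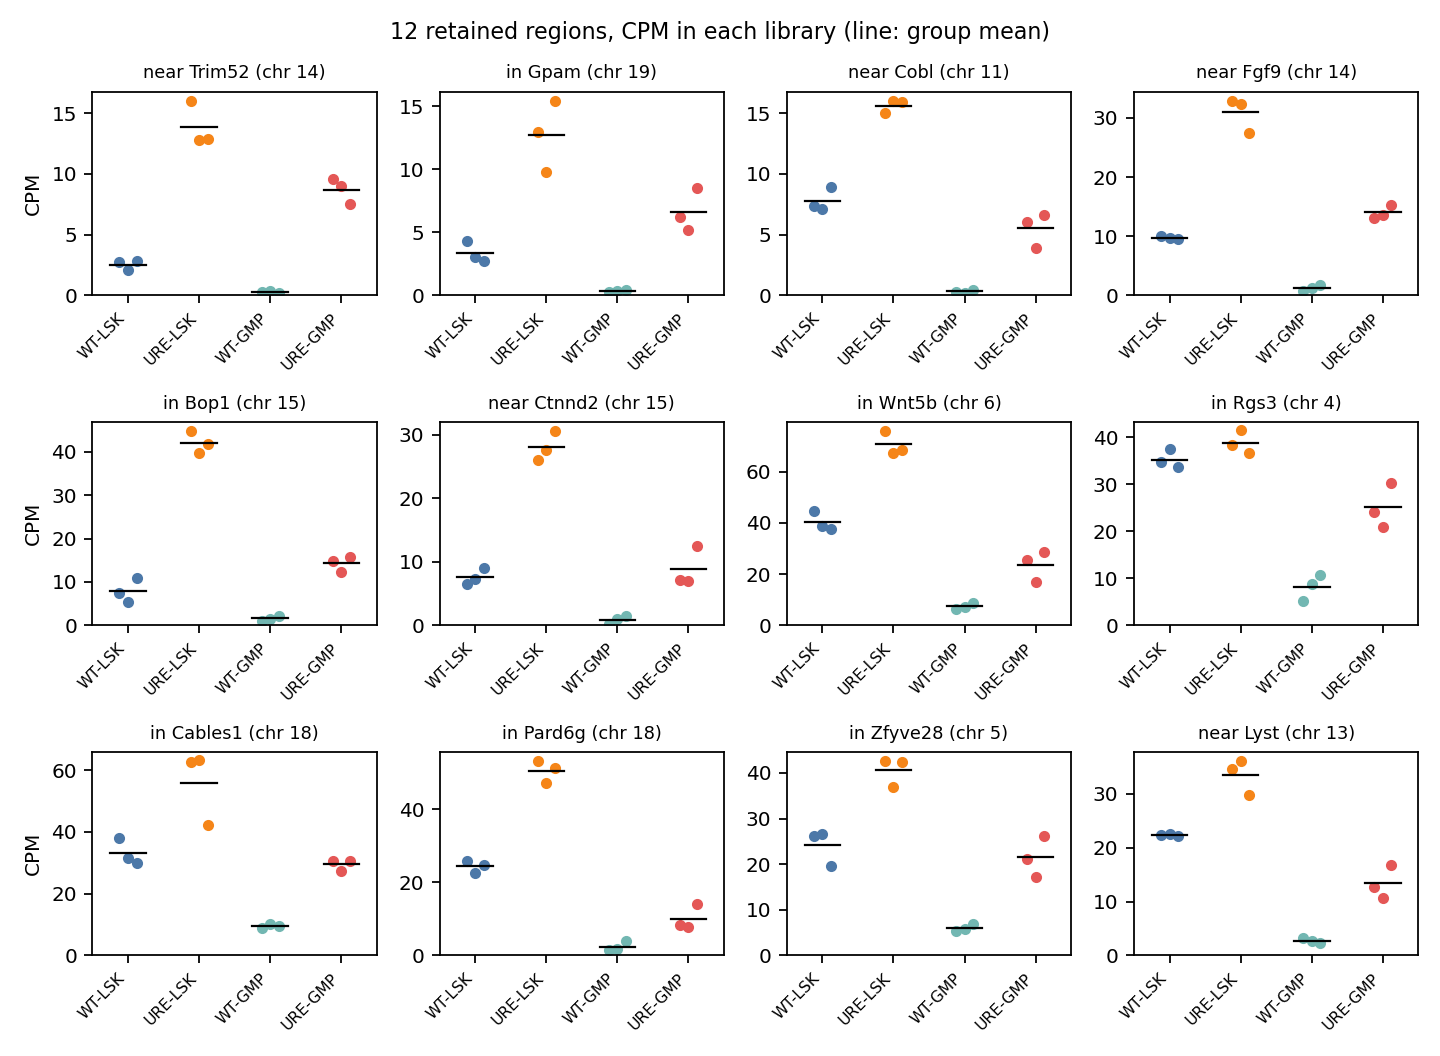
CPM of 12 retained regions in each library (points) with the group mean (line), each panel on its own linear axis from 0. The first 6 panels hold the largest URE-GMP/WT-GMP ratios (7.87 to 17.2) and the last 6 the highest WT-LSK levels, and in all 12 the URE-GMP points lie above the WT-GMP points and the URE-LSK mean is the highest of the 4.

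The fall from URE-LSK to URE-GMP was very uneven among the retained regions. At one end, a region on chromosome 8 whose nearest start site was that of Adamts18 went from 43.3, 29.5 and 36.6 CPM in URE-LSK to 1.35, 0.884 and 1.61 in URE-GMP, a ratio of 0.0417. WT-GMP was almost empty there, at 0.00, 0.0874 and 0.284 CPM, and its URE-GMP level was only 0.384 times that of WT-LSK. At the other end, a region in an intron of Hivep3 nearest to the start of Edn2, the gene of endothelin 2, had 2.50, 4.70 and 2.45 CPM in URE-LSK and 2.90, 3.28 and 4.12 in URE-GMP, a ratio of 1.06. These were chosen after their values were seen, as the ends of the range.

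Xrcc6, the gene of the Ku70 subunit of the DNA end-binding complex, had a retained region at 1 of its annotated start sites, inside Desi1, at chr15:82027706-82028214. Its CPM were 12.6, 14.2 and 9.28 in WT-LSK and 1.40, 2.53 and 2.41 in WT-GMP. With the URE deleted, LSK had 17.7, 14.6 and 17.7 and GMP had 14.4, 15.9 and 16.6. Both URE groups overlapped at this region, and URE-GMP lay 6.70 times above WT-GMP. It was 1 of 20 retained regions within 500 bp of an annotated transcription start.

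The retained regions were scattered over the genome. They lay on 20 chromosomes, with 17 on chromosome 5, 15 on chromosome 4, 14 on chromosome 2 and 1 on X. Within 100 kb of a protein-coding start site lay 116 of them, assigned to 111 genes, and 36 had no such site. No gene had 3, and 5 genes had 2, namely Cables1, Scx, Gulo, Lypd6b and Mmp16. In 5 cases 2 retained regions lay within 50 kb of each other. At Mmp16, the gene of a membrane-type matrix metalloproteinase, one region lay at the promoter and the other 860 bp upstream of the start, 745 bp from the first.

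The pairs did not behave alike. In Lypd6b, which encodes a LY6/PLAUR domain protein, the region at chr2:49840683-49841484 had 7.27, 6.72 and 9.43 CPM in WT-LSK and 0.867, 0.808 and 1.92 in WT-GMP. In URE mice they were 10.1, 12.99 and 8.99 in LSK and 10.5, 9.77 and 10.5 in GMP. It did not fall from URE-LSK to URE-GMP, with a ratio of 0.962 and overlapping libraries. Its neighbour 4650 bp on had 7.44, 7.16 and 6.74 CPM in URE-LSK and 3.63, 3.94 and 3.66 in URE-GMP, a ratio of 0.542, with no overlap. At Gulo, the gene of the last enzyme of vitamin C synthesis, the promoter region was at 5.34 ± 0.317 CPM in WT-LSK and 5.85 ± 0.506 in URE-LSK, while the region in Adam2 had 16.4 ± 1.94 and 24.0 ± 4.36. Both held 0.849 and 0.829 times the WT-LSK level in URE-GMP.

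None of the 152 lay within 100 kb of the start site of a gene of 11 lists of blood cell genes with that site as its nearest. The lists covered stem cell transcription factors, stem and progenitor surface genes, megakaryocyte and platelet, erythroid, mast cell and basophil, B lineage, T lineage, granulocyte and monocyte, cell cycle and quiescence, survival and autophagy genes. Regions nearest to a start site of these 230 genes within 100 kb numbered 2428, of which 113 were LSK regions. The share of retained regions among all LSK regions near any start site was 2.53%, so few of these 113 would be retained at that share.

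The study's single-cell RNA-seq defined 4 gene signatures. Retained regions made up 0 of 120 LSK regions at genes of signature 1, 4 of 102 in signature 2, 3 of 145 in signature 3 and 12 of 193 (6.22%) in signature 4, against 2.53% overall. The signature 4 regions included those at Lyst and Lypd6b and others at Lamc1, Baiap2, Pde4d, Tanc1, Efhd2 and Cngb1. Among the signature 2 regions, one at Ergic1, the gene of a cargo protein between endoplasmic reticulum and Golgi, had 11.1, 11.1 and 11.1 CPM in WT-LSK and 1.86, 2.42 and 2.86 in WT-GMP. With the URE deleted, LSK had 24.8, 23.4 and 20.4 and GMP had 12.1, 11.3 and 11.4. In that region URE-GMP returned to the WT-LSK level, with a ratio of 1.04. The Ergic1 promoter with the highest mean CPM was a different region, with means of 22.9 CPM in WT-GMP and 23.9 in URE-GMP.

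Sequence and position were not part of the criteria. Retained regions were wider than others, with a median of 455.5 bp against 376 bp in the LSK regions not kept and 322 bp over all regions, while GC content was much the same, at 50.7%, 49.3% and 49.7%. Introns held 79 of them (52.0%), intergenic sequence 45 (29.6%), promoters 20 (13.2%) and exons 8, and the promoter share lay between that of the LSK regions not kept (8.70%) and of all regions (18.9%). No retained region had more than 50% of its central bases soft-masked as repeats in the reference, against 2.33% of the LSK regions not kept and 5.12% of all regions. Soft-masking does not mark every repeat. In the Rgs3 window printed above a unit recurs in tandem, yet 0% of its bases were soft-masked.

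Motifs were counted in the central 300 bases on both strands, so the length searched was the same for every region. In regions narrower than 300 bases the window took in flanking sequence. Such regions were less frequent among the retained regions than in the sets they are compared with. Region width can therefore still bear on these shares, and the part of the flanking bases was not tested. The RUNX letters AACCACA were found in 44 retained regions (28.9%), in 20.4% of the LSK regions not kept, 15.5% of the 821 LSK regions lost in URE-LSK and 14.4% of all regions. The E-box CAGCTG was found in 53 (34.9%), against 25.8%, 25.2% and 20.5%. AP-1 letters TGANTCA were found in 32 (21.1%), against 15.2%, 7.55% and 12.1%. At least 1 of these motifs was present in 100 retained regions (65.8%), against 51.1% of the LSK regions not kept and 40.2% of all regions.

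The PU.1 letters GAGGAAGT showed the opposite order. They were found in 5 retained regions (3.29%), 5.88% of the LSK regions not kept, 14.6% of the LSK regions lost in URE-LSK and 8.70% of all regions. Those 5 lay in introns of Lama2, Rgs3, Creb5 and Cep162 and in an intergenic region nearest to Dthd1. GATA letters AGATAA were found in 7.89% of the retained regions, 14.03% of the LSK regions not kept and 12.9% of all regions, and HOX-PBX letters TGATNNAT in 7.24%, 12.5% and 8.50%. CEBP letters TTGCNNAA were found in 11.2% of the retained regions, close to the 10.5% of the LSK regions not kept, and in 16.4% of all regions. The CTCF motif was found in 0 of the 152, but also in only 0.284% of the LSK regions not kept, against 3.75% of all regions. The ETS letters CCGGAAGT were found in 2 retained regions. A match is a run of letters and not a measured binding site. The median URE-GMP/WT-LSK ratio was 0.799 with a RUNX match and 0.890 without, 0.891 with an E-box and 0.838 without, and 0.837 with an AP-1 match and 0.877 without. In the 5 regions with a PU.1 match it was 0.625, against 0.884 in the other 147, and the median URE-GMP/URE-LSK ratio was 0.200 against 0.365.

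**Figure D4:**
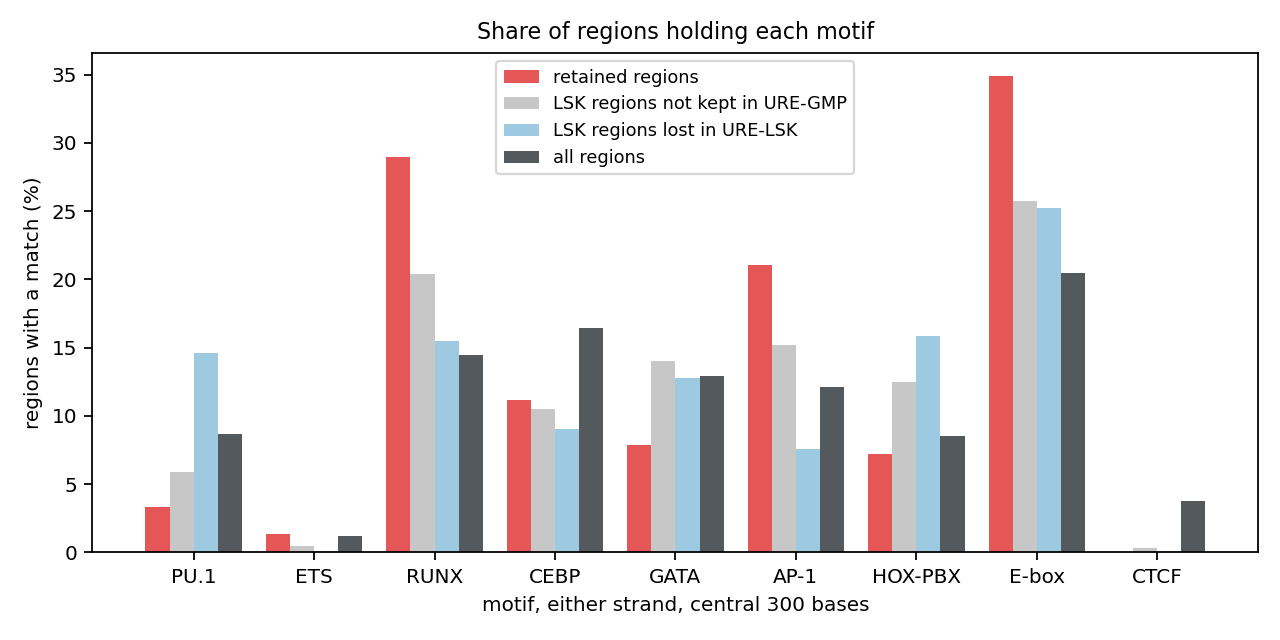
Share of regions (percent, y axis from 0) with at least 1 match to each of 9 motifs in the central 300 bases, for the 152 retained regions, 4931 LSK regions not kept in URE-GMP, 821 LSK regions lost in URE-LSK and all 121336 regions. RUNX (28.9%), E-box (34.9%) and AP-1 (21.1%) bars are highest in the retained regions, and the PU.1 bar is lowest there (3.29%).

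The promoters of genes with a retained region nearby had no part in the choice, so they could be tested. A promoter that was not itself retained was present for 89 of the 111 genes. In URE-GMP against WT-GMP 7 of these promoters (7.87%) were called higher and 2 were called lower (2.25%) by edgeR's quasi-likelihood test with Benjamini-Hochberg adjustment (adjusted p under 0.05 and an absolute log2 fold change over 1), where 3.64% and 6.49% of 16788 protein-coding promoters were called, and 15.6% and 24.1% of all regions. Without the fold threshold, 53 (59.6%) were higher at an adjusted p under 0.05, against 36.0% of the promoters and 29.6% of all regions. The median log2 fold change was 0.33 against 0.16. With loess offsets, which centre changes at each level of abundance, the count without the fold threshold was 31 (34.8%) in place of 53. The share of protein-coding promoters was then 17.6%. Library size scaling gave 38 (42.7%) against 20.8%, and TMM on promoter regions 39 (43.8%) against 19.3%. The 89 were 1 promoter per gene, that with the highest mean CPM. The 16788 took in every protein-coding promoter region, so the 2 sets were not matched for abundance.

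The largest rise was at the promoter of Prkcz, the gene of the atypical protein kinase C zeta, at chr4:155360830-155362094. Its CPM were 9.87, 7.24 and 7.69 in WT-LSK and 4.62, 2.99 and 3.90 in WT-GMP. In URE mice they were 75.7, 68.8 and 70.1 in LSK and 18.9, 17.4 and 21.0 in GMP. The fitted log2 fold change was 2.45 ± 0.16 (SE) in GMP (edgeR adjusted p = 1.83e-08) and 3.23 ± 0.15 in LSK (edgeR adjusted p = 1.45e-09). The retained region of this gene, 5598 bp upstream, had 0.413, 0.328 and 0.307 CPM in WT-GMP, against 1.55, 1.32 and 1.86 in URE-GMP.

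Adamtsl3, which encodes a secreted matrix protein, had 4.13, 3.15 and 3.81 CPM at its promoter in WT-GMP, against 12.03, 9.92 and 9.78 in URE-GMP, a log2 fold change of 1.64 ± 0.16 (edgeR adjusted p = 7.00e-07). Hspb8, a small heat shock protein gene, had 0.867, 1.18 and 2.46 CPM in WT-GMP, against 4.04, 3.25 and 4.30 in URE-GMP, a log2 fold change of 1.44 ± 0.32 (edgeR adjusted p = 0.000951). At both, all URE-GMP libraries lay above all WT-GMP libraries. Adgrb2, Camk4, Fam189a1 and Acoxl were the other promoters called higher, with log2 fold changes of 1.15, 1.14, 1.02 and 1.04. Those of Fam189a1 and Acoxl were under 1 with library size scaling (0.90 and 0.91), with TMM on promoter regions (0.89 and 0.90) and with only regions of a mean of at least 2 CPM (0.95 and 0.97), those of Acoxl and Adgrb2 also without 1 WT-GMP library, at 0.87 without replicate 1 and 0.98 without replicate 2, and those of Fam189a1 and Acoxl without URE-GMP replicate 1 and replicate 3, at 0.99 and 0.97.

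Promoter and retained region did not always change in the same direction. At Rgs3 a promoter at chr4:62663373-62664321 had 19.5, 16.1 and 16.96 CPM in WT-GMP, against 7.36, 6.43 and 6.12 in URE-GMP, a log2 fold change of -1.28 ± 0.14 (edgeR adjusted p = 1.30e-06), while the retained region in the gene was 3.01 times higher in URE-GMP. Rgs3 has several start sites, and the retained region lay nearest to another one. A promoter of Magi2, a membrane scaffold gene, had 3.76, 4.76 and 2.93 CPM in WT-GMP, against 0.0816, 0.257 and 0.136 in URE-GMP, a log2 fold change of -4.39 ± 0.34 (edgeR adjusted p = 8.04e-08), and the retained region of this gene was at a different start site.

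**Figure D5:**
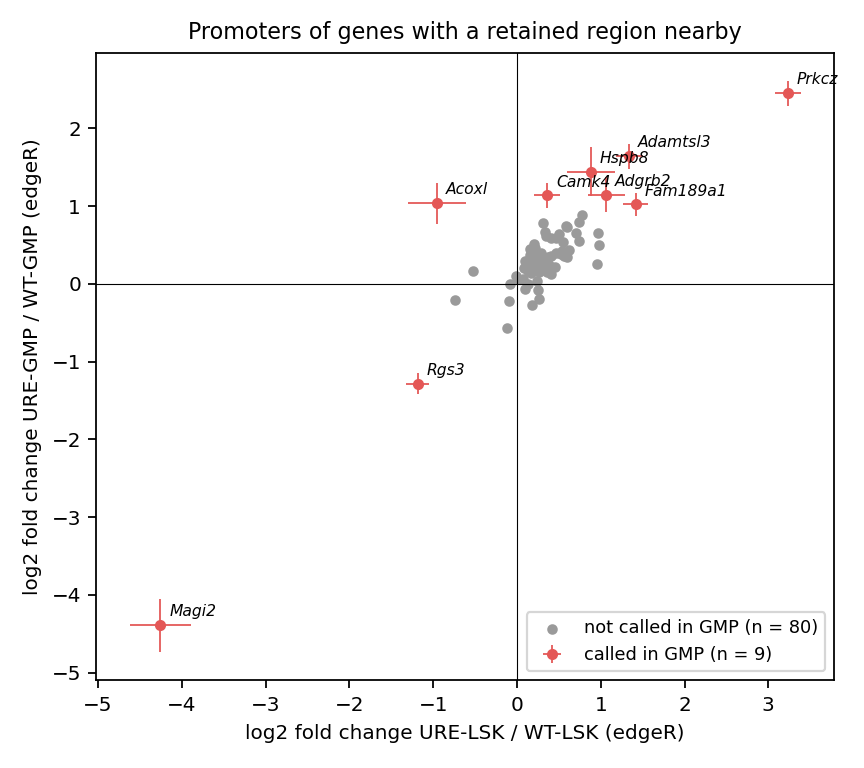
Log2 fold changes (edgeR) of 89 promoters of genes with a retained region within 100 kb, in LSK (x) and in GMP (y), with standard errors for the 9 called in GMP. Of the called promoters 7 lie above 0 on the y axis, up to 2.45 at Prkcz, and 2 below, down to -4.39 at Magi2, and Acoxl is the only called promoter with opposite signs in the 2 cell types.

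Other open regions around the retained ones were more often called higher in URE mice than those farther away. Within 50 kb of a retained region lay 1269 further regions, of which 381 (30.0%) were called higher and 195 (15.4%) lower in URE-GMP than in WT-GMP. In the 119915 regions farther away, 15.4% were called higher and 24.2% lower. In URE-LSK against WT-LSK, 23.2% of the near regions, 13.4% of the far ones and 13.6% of all regions were called higher. Among LSK regions alone the shares were alike there, at 12.7% near and 12.3% far. In URE-GMP against WT-GMP they were 24.1% and 10.8%. LSK regions were not much more frequent near retained regions, with 79 of 1269 (6.23%) against 4.73%. Neighbouring regions are not independent of each other, and no test was made of these shares.

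Markers of other cell types that could enter the GMP gate were summed near their start sites, and none of these regions was a retained region. The LSK list was lower in URE-GMP (273 to 281 CPM) than in WT-GMP (339 to 394), and the GMP list was higher (1138 to 1204 against 812 to 1036). The members of both lists were not alike: Meis1, Flt3 and Cd34 had means of 30.0, 33.0 and 22.2 CPM in URE-GMP against 75.1, 52.0 and 46.6 in WT-GMP, while Mecom (128 against 123) and Hlf (49.7 against 49.6) were level. In the GMP list Mpo (605 against 415) and Ctsg (197 against 111) were higher, whereas Csf1r (35.7 against 68.2) and Ms4a3 (13.4 against 27.8) were lower. The 8 megakaryocyte markers gave 88.1 to 109 CPM in URE-GMP and 115 to 166 in WT-GMP, 7 of 9 erythroid markers 73.2 to 76.9 and 80.2 to 91.1, and 9 of 10 lymphoid markers 165 to 175 and 155 to 179. Of the lists of other cells, the mast cell and basophil list was higher, at 45.8 to 58.3 CPM in URE-GMP against 34.5 to 44.1 in WT-GMP, and it was also higher in URE-LSK (31.9 to 42.5) than in WT-LSK (19.9 to 24.5). It rested on 3 of 7 markers, with no region at Ms4a2, Fcer1a, Prss34 and Cd200r3. Of the 3, Mcpt8 had a mean of 23.1 CPM in URE-GMP against 10.05 in WT-GMP and Cpa3 15.3 against 13.5, but Hdc was lower, at 13.2 against 17.1 in GMP and 1.62 in URE-LSK against 5.63 in WT-LSK. The part of this in the result was not tested. In sorted bulk samples, a region that is open in more cells cannot be told apart from one that is more open per cell.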

How the data were processed

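ATAC-seq was measured in 12 libraries, 3 for each of WT-LSK, WT-GMP, URE-LSK and URE-GMP, grouped and numbered by the labels. The authors deposited raw counts per region and library, without normalization. According to the study's methods and the submitters' processing notes, reads were placed on GRCm38 with Bowtie2, duplicates and reads outside the primary chromosomes were removed, and peaks called with Genrich were merged into 121336 regions. cutadapt, bedtools and featureCounts are also named. It is not stated whether fragments or read ends were counted. Region starts were taken as counted from 0 and are printed counted from 1. All 12 count columns were used.

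CPM were counts divided by the column sum. Counts were fitted in R 4.3.3 with edgeR 4.0.16 (TMM scaling, quasi-likelihood test, 1 coefficient per group, all 12 libraries, two-sided, Benjamini-Hochberg adjustment over 121336 regions). filterByExpr removed no region. The biological coefficient of variation was 0.185. The fit was tested on simulated data. Regions were annotated with GENCODE M21 and sequence was read from GRCm38. Promoters lay within 500 bp of a transcription start, and where a gene had several the one with the highest mean CPM was taken. Depth was 23072701 to 62204826 counts, and counts behind WT-GMP values of retained regions were low.

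The criteria, lists and tests were chosen with earlier results of these data known. Regions were named by rule: the 6 with the largest URE-GMP/WT-GMP ratio at 5 CPM or more, the 6 with the highest WT-LSK mean, the one with the highest URE-GMP mean in each list or signature, the 3 on each side of the threshold, and the 10 genes with the most retained regions. One region that this rule names is not reported here. Sequences, promoters and the ends of a range were picked after values were seen. A test of promoters of genes with 3 or more retained regions was planned, but no gene had 3, and promoters of all genes with one were used. The test of the genotype difference between cell types was also added. Calls in the retained regions themselves were planned but are not given, because the criteria used all 4 groups.

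Same-numbered libraries were checked for pairing by the correlation of their deviations from group means. It was 0.179, 0.191 and 0.206 between WT-LSK and WT-GMP and 0.101, 0.207 and 0.350 between WT-GMP and URE-GMP, over 0.1 throughout. In the other pairs of groups it was not over 0.1 throughout. The values were 0.100, 0.0622 and -0.0611 between URE-LSK and WT-LSK, and 0.0769, 0.178 and 0.140 between WT-LSK and URE-GMP. They were 0.0620, 0.275 and 0.120 between URE-LSK and URE-GMP, and -0.00550, 0.00579 and -0.191 between URE-LSK and WT-GMP. Alternatives were DESeq2 1.42.0, other scalings (RLE, library size, promoter regions, loess), a higher filter (mean CPM of 2) or none, the replicate block, each library left out, other settings of the criteria, and whole regions for motifs.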

Additional observations from a re-analysis of the deposited data

Results flagged for a closer look

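The promoter of Acoxl, the gene of an acyl-CoA oxidase-like protein with a retained region in an intron 26418 bp from its start, differed between genotypes with opposite signs in the 2 cell types. It had 2.35, 3.89 and 3.07 CPM in WT-GMP, against 5.71, 5.58 and 6.43 in URE-GMP, but 0.503, 0.867 and 1.21 in WT-LSK and 0.318, 0.301 and 0.607 in URE-LSK. The log2 fold change was 1.04 ± 0.26 in GMP (edgeR adjusted p = 0.00296) and -0.95 ± 0.35 in LSK (edgeR adjusted p = 0.0286), where it did not reach the fold threshold. The genotype difference in GMP minus that in LSK was 1.99 ± 0.44 (log2, SE, edgeR adjusted p = 0.00573). The retained region itself was higher in both cell types of URE mice, at 7.61 ± 0.734 CPM in URE-GMP against 1.82 ± 0.180 in WT-GMP and 12.5 ± 1.30 in URE-LSK against 5.999 ± 0.276 in WT-LSK (SD, n = 3).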

How the results depend on the processing

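The number of retained regions depended on the settings of the criteria. It was 317 with no offset, 23 with an offset of 1, 883 and 38 with ratio thresholds of 2 and 4, 74 with a minimum WT-LSK level of 5 CPM, and 160 with TMM-scaled CPM, of which 134 were shared. Leaving out each library gave 105 to 262 regions, the highest without WT-GMP replicate 3 and the lowest without URE-GMP replicate 3. For the 152 regions, leaving out each library gave medians of the log2 fold change from -2.73 to -2.32 for WT-GMP against WT-LSK and from 2.18 to 2.58 for URE-GMP against WT-GMP, both ends farthest from 0 being without WT-GMP replicate 3. Promoters of genes with a retained region that were called higher in URE-GMP numbered 5 to 8 over all alternatives. Without the fold threshold the count ran from 31 with loess offsets to 62 with DESeq2, against 53. It was 38 with library size scaling, 39 with TMM on promoter regions and 56 with the replicate block. The block moved no count by over 1.5 times. With whole regions in place of the central 300 bases, the E-box share was 43.4% and the RUNX share 34.9%. WT-GMP counts limit the ratios most, since a median of 16 counts lay behind a region in replicate 1. The cause of these shifts was not tested.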
